A study of Homo sapiens with 6 samples.

Results

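The 7 genes described here are the hexokinase gene HK2, the glycolytic genes PGAM1 and PGK1, and the hypoxia-inducible factor (HIF) target genes BNIP3, NDRG1, EGLN1 and ANKRD37. They were taken by symbol from the deposited array values, with the brightest probe set (a group of probes read as one measurement) kept for each gene, and they are 7 of the 14884 named genes tested. All 7 had 1 named probe set. The cells were SH-SY5Y, an established neuroblastoma line of human origin, and their RNA was hybridised to 6 Affymetrix arrays of type Human Gene 2.0 ST, 2 for each of 3 groups. One group was given securinine, a plant alkaloid, at 30 µM. Another was given 16F16, an inhibitor of protein disulfide isomerase, at 4 µM, and the mock group was given methanol, the solvent. All groups were treated for 24 h in the same medium, and all come from this single cell line. The doses of the compounds differ, so a difference between them is a difference between the treatments as given. The question addressed is which of these genes differed in RNA level after each compound, relative to the solvent and to each other.

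Cells take up glucose and trap it by phosphorylation, a step that hexokinases catalyse, and glycolysis then converts it to pyruvate with a gain of ATP. HK2 is the inducible hexokinase that binds the outer mitochondrial membrane and is abundant in many tumours. HIF is a transcription factor made of an oxygen-regulated alpha subunit and a stable beta subunit; prolyl hydroxylases such as the EGLN1 product mark the alpha subunit for degradation when oxygen is present. HIF raises transcription of many glycolytic genes and of genes for mitophagy, angiogenesis and its own hydroxylases.

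Values are log2 intensities after RMA, a method that removes background, brings the arrays to a common scale and combines the probes of each probe set. The array medians of all 53617 probe sets lay between 4.16 and 4.23, and each of the 7 genes lay above the array median on all 6 arrays. Levels of different genes were not set against each other, because each probe set has its own response. Of 15 markers of sympathetic neuroblasts 12 were measured, meaning that a named probe set existed for them. All 12 lay above the array median on all 6 arrays. DBH, which makes noradrenaline, ranged from 11.79 to 12.5, while TH, another of the 12, ranged from 5.1 to 5.61. Of 14 markers of epithelial, blood, endothelial and fibroblast cells 7 were measured. DCN, a fibroblast proteoglycan, was the 1 of them below the lower quartile on all 6 arrays, and the epithelial genes EPCAM (4.97 to 5.31) and KRT8 (4.55 to 5.56) lay above the array median on all 6. The mean log2 value of those 7 was 3.66 and 3.77 with securinine, 3.68 and 3.87 with 16F16, and 3.67 and 3.79 in mock cells. Of the 7, CD14 rose with securinine by 0.57 (adjusted p = 0.038, limma).

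A gene was called where limma's moderated test, adjusted over all 14884 genes, gave an adjusted p under 0.05. With securinine, 4 of the 7 genes passed against mock: HK2, NDRG1 and BNIP3 fell, and EGLN1 rose. Over all genes tested 19.0% passed in that comparison, 8.40% higher and 10.6% lower. With 16F16, HK2 and PGAM1 fell and the other 5 genes did not pass. Over all genes 1.50% passed with 16F16, 0.719% higher and 0.779% lower. In securinine against 16F16, PGAM1, EGLN1 and ANKRD37 passed and all 3 were higher with securinine, against 9.51% of all genes, 3.96% higher and 5.55% lower. The 7 genes were chosen with earlier results known, so these counts describe them and test nothing about the group. Among the 10566 genes brighter than the median of all probe sets, as the 7 genes are, 25.3%, 2.01% and 12.6% passed in the same 3 comparisons. Of all genes tested, 33.6%, 21.1% and 27.7% had an unadjusted p under 0.05 in those comparisons (limma). Both comparisons with mock share the mock arrays. Leaving out an array of the group not compared gave the same values for the 7 genes as fitting the 4 compared arrays alone. With any 1 of the 6 arrays left out, no gene passed for 16F16 against mock in limma, and 2099 to 2904 genes had an unadjusted p under 0.05. Between the compounds no gene passed without either securinine array or without the first 16F16 array, where 3023 to 3469 had an unadjusted p under 0.05.

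**Figure D1:**
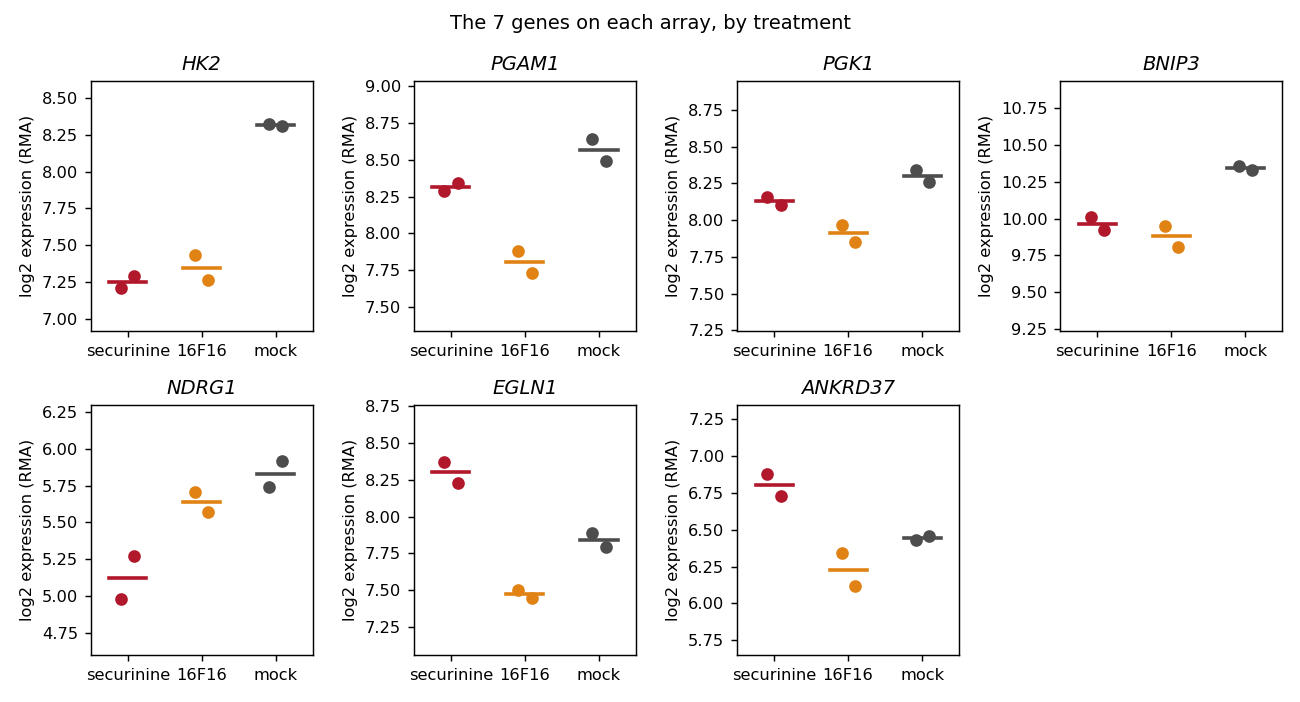
Each panel plots the log2 RMA value of 1 of the 7 genes on the 2 securinine, 2 16F16 and 2 mock arrays; points are arrays and short horizontal lines are group means. HK2 lies between 7.21 and 7.43 on the 4 treated arrays and at 8.31 and 8.32 on the mock arrays, and EGLN1 lies above mock with securinine and below mock with 16F16.

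The promoters of these genes are shown because HIF binds a short motif, the hypoxia response element, whose core is ACGTG or GCGTG. The stretches below are RefSeq sequence of build GRCh38.p14, read 5′ to 3′ on the strand given, and are cut from windows of 300 bases (250 before to 50 after each transcription start). Capitals mark ACGTG or GCGTG on either strand, so CACGT and CACGC are the reverse reading. CACGTG, the E-box bound by MYC and its partners, holds ACGTG on both strands and overlaps it. The promoter table held 7 windows for 6 of the 7 genes, since HK2 has a pair of listed starts.
HK2 first start, chr2:74833883-74834098, plus strand: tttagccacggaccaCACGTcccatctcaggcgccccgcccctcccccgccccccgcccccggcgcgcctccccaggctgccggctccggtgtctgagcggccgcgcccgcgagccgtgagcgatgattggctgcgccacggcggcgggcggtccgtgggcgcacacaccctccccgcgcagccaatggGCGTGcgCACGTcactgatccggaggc
HK2 second start, chr2:74834961-74835119, plus strand: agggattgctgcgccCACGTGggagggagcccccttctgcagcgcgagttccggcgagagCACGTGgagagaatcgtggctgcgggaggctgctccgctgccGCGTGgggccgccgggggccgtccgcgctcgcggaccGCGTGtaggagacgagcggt
PGK1, chrX:78104022-78104295, plus strand: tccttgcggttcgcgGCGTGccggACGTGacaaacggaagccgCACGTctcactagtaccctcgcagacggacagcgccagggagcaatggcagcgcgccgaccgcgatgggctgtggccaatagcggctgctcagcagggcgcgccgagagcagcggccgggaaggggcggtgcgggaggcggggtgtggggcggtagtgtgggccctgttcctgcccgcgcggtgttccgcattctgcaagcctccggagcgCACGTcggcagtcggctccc
BNIP3, chr10:131982008-131982081, minus strand: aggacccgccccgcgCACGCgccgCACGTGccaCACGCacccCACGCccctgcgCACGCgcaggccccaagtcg
EGLN1, chr1:231422281-231422315, minus strand: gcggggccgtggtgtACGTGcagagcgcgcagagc
ANKRD37, chr4:185396664-185396717, plus strand: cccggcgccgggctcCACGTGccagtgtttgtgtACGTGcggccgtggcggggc

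The PGAM1 window held no match, so no stretch is shown for it. The second HK2 window held 6 matches, of which CACGTG supplied 4 from its pair of sites, and the first HK2 window held 3. The BNIP3 window also held 6 matches, PGK1 4, ANKRD37 3 and EGLN1 1. Over all 35116 promoter windows, 48.4% held ACGTG or GCGTG, 21.4% held ACGTG and 7.26% held CACGTG. A match describes the letters of the window only.

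HK2 was lower with both compounds than with solvent. HK2 read 7.21 and 7.29 with securinine, 7.43 and 7.26 with 16F16, and 8.32 and 8.31 in mock cells. All 4 treated arrays lay below both mock arrays, and the securinine and 16F16 arrays overlapped. With securinine HK2 averaged 7.25 ± 0.0569, against 8.32 ± 0.0058 in mock cells (SD, n = 2 each), a log2 difference of -1.06 ± 0.0925 (SE; adjusted p = 0.0038, limma), or 2.09 times lower. With 16F16 it averaged 7.34 ± 0.122 (SD, n = 2), a log2 difference from mock of -0.97 ± 0.0925 (SE; adjusted p = 0.027, limma), or 1.96 times lower. Between the compounds the log2 difference was -0.09, with a 95% interval of -0.32 to 0.14 (adjusted p = 0.58, limma). In order of level HK2 was highest in mock cells, and the compounds, at 30 and 4 µM, did not separate beyond their spread. In bulk RNA, fewer cells of a kind and less RNA per cell cannot be told apart.

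The securinine call on HK2 was kept under the 11 alternative settings that gave a separate fit (adjusted p 3.7e-06 to 0.039, limma). The 16F16 call was lost when any 1 of the 6 arrays was left out (adjusted p 0.083 to 0.2, limma), when the 4 arrays alone were fitted (0.087), with all probe sets (0.12) and with a replicate block (0.077). Markers of the neuroblast state moved in the same comparisons: 6 of 12 fell and 1 rose with securinine, and 3 fell and none rose with 16F16 in limma. Of all genes tested 10.6% were called lower and 8.40% higher with securinine, and 0.779% lower and 0.719% higher with 16F16. CHGA, a secretory granule protein gene, differed from mock by -2.22 with securinine and -1.24 with 16F16. HAND1, the 1 marker that rose with securinine, differed from mock by 0.62 (adjusted p = 0.0092, limma). The mean log2 value of the 12 markers was 9.24 and 9.35 with securinine, 9.55 and 9.54 with 16F16, and 9.88 and 9.89 in mock cells. Their part in the HK2 result was not tested.

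Of the other hexokinases, HK1, HK3 and HKDC1 were measured, and HK1, the widely expressed form, fell with securinine. HK1 read 7.68 and 7.65 with securinine, 7.85 and 7.84 with 16F16, and 7.99 and 7.94 in mock cells. Both securinine arrays lay below both mock arrays, with a log2 difference of -0.3 ± 0.075 (SE; adjusted p = 0.047, limma). That call was lost when any 1 of the 6 arrays was left out. With 16F16 the HK1 difference was -0.12 (adjusted p = 0.42). HK3, a hexokinase of blood cells, differed from mock by 0.11 with securinine and -0.11 with 16F16, and HKDC1 by 0.13 and 0.09, none of which passed.

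**Figure D2:**
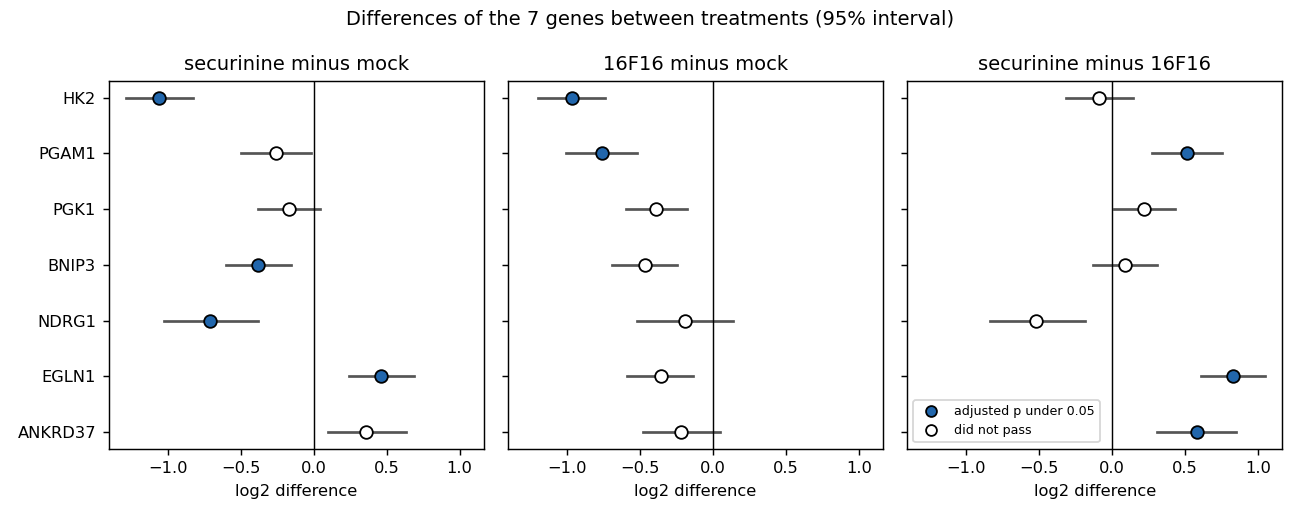
The log2 difference of each of the 7 genes is plotted with its 95% interval, in panels for securinine against mock, 16F16 against mock and securinine against 16F16. The intervals are not adjusted for the number of genes. The HK2 interval lies below 0 in both comparisons with mock and spans 0 between the compounds, while the EGLN1 interval lies above 0 with securinine and below 0 with 16F16.

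PGAM1 encodes phosphoglycerate mutase, which moves the phosphate group of phosphoglycerate near the end of glycolysis. PGAM1 read 8.29 and 8.34 with securinine, 7.88 and 7.73 with 16F16, and 8.64 and 8.49 in mock cells. The 16F16 arrays were lowest and the groups did not overlap. With 16F16 the log2 difference from mock was -0.76 ± 0.0971 (SE; adjusted p = 0.036, limma), or 1.7 times lower, and with securinine it was -0.26 (adjusted p = 0.13). Between the compounds PGAM1 was 1.42-fold higher with securinine, a log2 difference of 0.51 with a 95% interval of 0.27 to 0.75 (adjusted p = 0.035, limma). Both calls were lost when any 1 of the 6 arrays was left out, at adjusted p of 0.099 to 0.2 with 16F16 against mock and 0.071 to 0.14 between the compounds (limma). Both were also lost with the 4 arrays alone (0.099 and 0.071), all probe sets (0.15 and 0.12) and a replicate block (0.09 and 0.064), and the difference between the compounds with centring on array medians (0.054).

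The probe set that carries the PGAM1 name stands in identifier order between those of GLT8D2 and CKAP4, genes of chromosome 12, whereas PGAM1 lies on chromosome 10. Of 15583 named probe sets whose 4 nearest named neighbours share 1 chromosome, 39 (0.25%) carry a gene of another chromosome, and the other 6 genes here are not among them. The RefSeq gene table lists 13 pseudogene symbols for PGAM1 and 46 for BNIP3. The values of both are therefore uncertain, and cross-hybridization was not tested. PGAM4, a near copy of PGAM1 on the X chromosome, read 6.51 and 6.98 with securinine, 5.97 and 6.05 with 16F16, and 6.64 and 6.57 in mock cells. PGAM4 was higher with securinine than with 16F16, by a log2 difference of 0.73 ± 0.161 (SE; adjusted p = 0.047, limma), and passed against mock with neither compound. That call was lost when any 1 of the 6 arrays was left out. Whether the PGAM1 and PGAM4 probe sets read the same RNA was not tested. PGAM2, the muscle form, differed from mock by -0.01 with securinine and -0.08 with 16F16.

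PGK1 encodes phosphoglycerate kinase, one of the ATP-producing steps of glycolysis. PGK1 read 8.16 and 8.1 with securinine, 7.97 and 7.85 with 16F16, and 8.34 and 8.26 in mock cells. The 3 groups did not overlap, with 16F16 lowest and mock highest, but the gaps were small. The log2 difference from mock was -0.17 with securinine (95% interval -0.38 to 0.04, adjusted p = 0.24) and -0.39 with 16F16 (-0.6 to -0.18, adjusted p = 0.085), and neither passed in limma. PGK2, its testis paralog, lay near or below the lower quartile and differed by -0.11 and -0.13.

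Of 26 further glycolytic enzymes 12 were measured, HK1 among them. The listed phosphofructokinases, aldolases and enolases and PKM had no named probe set, so the pathway was covered only in part. With securinine HK1 alone fell, and none rose, where 10.6% of all genes were called lower and 8.40% higher. The median log2 difference of the 12 was -0.038, against -0.035 over all genes. With 16F16 none of the 12 passed in limma, and 3 had an unadjusted p under 0.05, against 21.1% of all genes. The median was -0.117, against -0.012 over all genes. LDHA, which converts pyruvate to lactate, differed by -0.22 with securinine (adjusted p = 0.21) and -0.43 with 16F16 (adjusted p = 0.1). GPI, which acts on the hexokinase product, differed by -0.14 and -0.26. Between the compounds PGAM4 was the 1 gene of the 12 that passed, against 9.51% of all genes.

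Of 14 regulators of glycolytic flux 6 were measured, and TIGAR, a phosphatase that lowers fructose bisphosphate, rose with both compounds. TIGAR read 7.89 and 8 with securinine, 7.38 and 7.65 with 16F16, and 6.67 and 6.74 in mock cells. All 4 treated arrays lay above both mock arrays. The log2 difference was 1.25 ± 0.116 with securinine (SE; adjusted p = 0.0041, limma) and 0.81 ± 0.116 with 16F16 (adjusted p = 0.043, limma). The 16F16 call on TIGAR was lost when any 1 of the 6 arrays was left out. TIGAR was the 1 of the 6 that passed against mock with either compound. Of all genes 8.40% were called higher with securinine and 0.719% with 16F16. The median of the 6 regulators was -0.004 with securinine and 0.013 with 16F16. VDAC1, the mitochondrial outer membrane channel that hexokinases bind, passed between the compounds and was higher with securinine by a log2 difference of 0.46 (adjusted p = 0.029, limma). The VDAC1 call was also lost when any 1 of the 6 arrays was left out. OGT, which adds N-acetylglucosamine to proteins, and the phosphatase MINPP1 both differed from mock by -0.12 with securinine, and by 0.01 and -0.09 with 16F16. Of 18 glucose and monocarboxylate transport genes only the carrier partners BSG and EMB were measured, and neither passed in any comparison, with no unadjusted p under 0.05 in limma; the glucose transporters themselves were not analysed here.

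**Figure D3:**
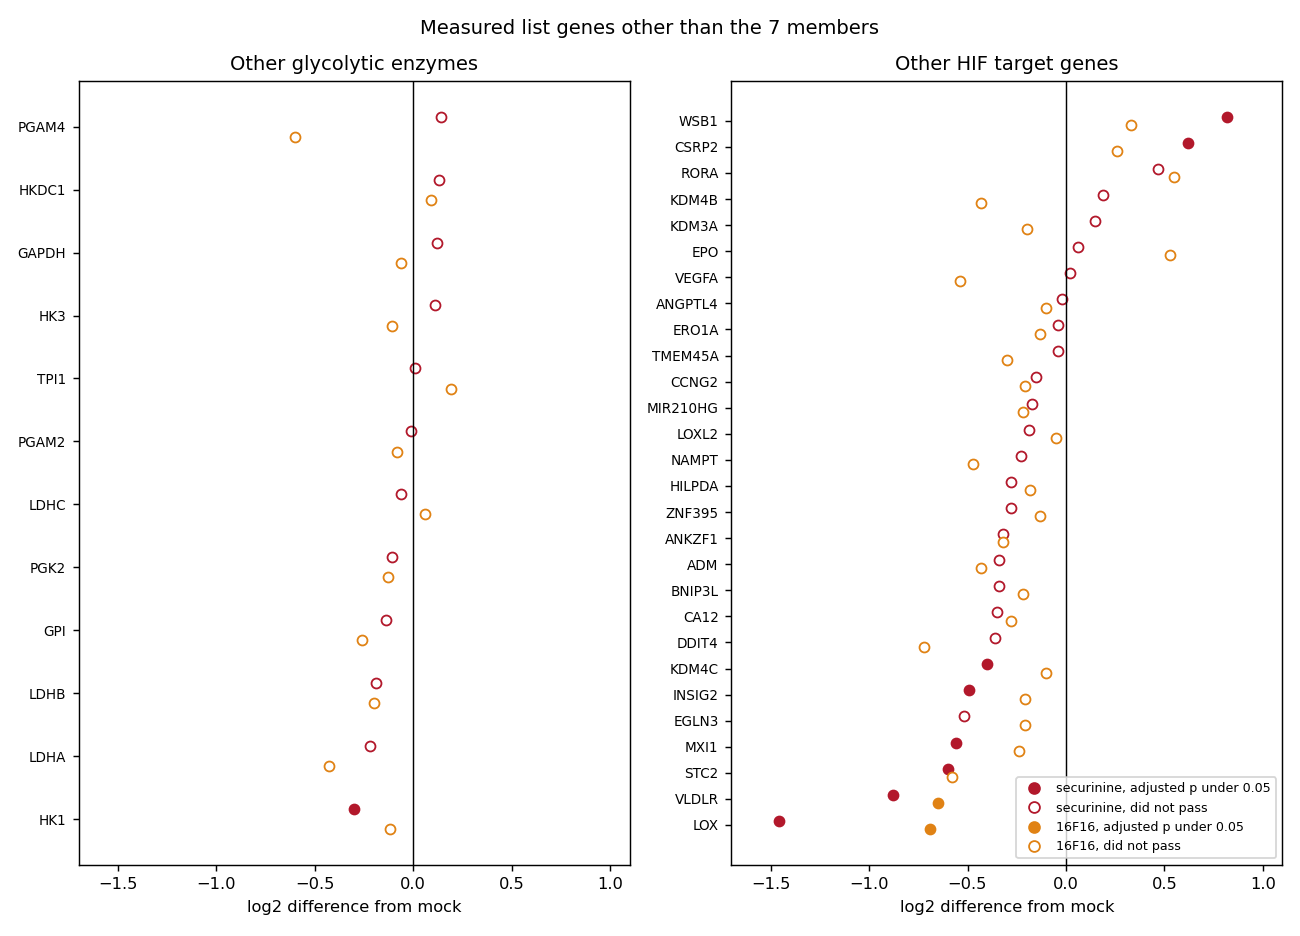
The log2 differences from mock are plotted for the measured glycolytic enzymes and HIF target genes other than the 7 genes, with 1 marker for securinine and 1 for 16F16 and filled markers for genes that passed the test. LOX, at -1.46 with securinine and -0.69 with 16F16, and VLDLR, at -0.88 and -0.65, passed with both compounds, while HK1, at -0.3 with securinine, is the 1 filled marker among the glycolytic enzymes.

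BNIP3 encodes a mitochondrial receptor that recruits autophagosomes to mitochondria in hypoxia. BNIP3 read 10.01 and 9.92 with securinine, 9.95 and 9.81 with 16F16, and 10.36 and 10.33 in mock cells. The 4 treated arrays lay below both mock arrays and the compounds overlapped. With securinine the log2 difference was -0.38 ± 0.0884 (SE; adjusted p = 0.036, limma), and with 16F16 it was -0.47 ± 0.0884 (adjusted p = 0.07), which did not pass. The securinine call was lost without either mock array (0.15 and 0.13), either securinine array (0.1 and 0.15), with a replicate block (0.052) and with all probe sets (0.12). Its paralog BNIP3L differed by -0.34 with securinine (adjusted p = 0.064) and -0.22 with 16F16 (adjusted p = 0.28).

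NDRG1 encodes a stress-responsive protein named for its repression by MYC-family factors and known as a suppressor of metastasis. NDRG1 read 4.98 and 5.27 with securinine, 5.71 and 5.57 with 16F16, and 5.74 and 5.92 in mock cells. The securinine arrays lay below all 4 others, and the 16F16 arrays lay just below the mock arrays. With securinine the log2 difference was -0.71 ± 0.132 (SE; adjusted p = 0.02, limma), or 1.63 times lower, and with 16F16 it was -0.19 (95% interval -0.52 to 0.14, adjusted p = 0.47). Securinine against 16F16 gave -0.52 (adjusted p = 0.067), so the effects of the compounds were not shown to differ. The securinine call was lost without either mock array (0.065 and 0.1), without the first securinine array (0.089) and with all probe sets (0.065).

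The other NDRG genes were all measured, and none passed in limma in any comparison. In each comparison with mock 1 of the 3 had an unadjusted p under 0.05, and 2 had one between the compounds. The shares of all genes with such a p were 33.6% with securinine, 21.1% with 16F16 and 27.7% between the compounds (limma). NDRG2 differed from mock by -0.45 with securinine (adjusted p = 0.055) and -0.06 with 16F16. NDRG3 differed by -0.09 and -0.1, and NDRG4 by 0.08 and 0.36.

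EGLN1, the prolyl hydroxylase that marks HIF alpha subunits, took opposite sides of mock with the compounds. EGLN1 read 8.37 and 8.23 with securinine, 7.5 and 7.45 with 16F16, and 7.89 and 7.79 in mock cells. The securinine arrays were highest, the 16F16 arrays lowest, and no groups overlapped. With securinine EGLN1 rose by a log2 difference of 0.46 ± 0.0895 (SE; adjusted p = 0.021, limma), or 1.38-fold, while with 16F16 the difference was -0.36 (95% interval -0.59 to -0.14, adjusted p = 0.1) and did not pass. The difference between the compounds was 0.83 ± 0.0895 (SE; adjusted p = 0.012, limma), or 1.77-fold higher with securinine. Leaving out either array of a compared group ended each call, at adjusted p of 0.06 to 0.11 against mock and 0.052 to 0.084 between the compounds (limma). With all probe sets the values were 0.083 and 0.061.

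ANKRD37, an ankyrin repeat gene induced by HIF, was likewise highest with securinine. ANKRD37 read 6.88 and 6.73 with securinine, 6.34 and 6.12 with 16F16, and 6.43 and 6.46 in mock cells. The securinine arrays lay above all others, and both 16F16 arrays lay below the mock arrays. Against mock neither compound passed: 0.36 with securinine (95% interval 0.1 to 0.63, adjusted p = 0.071) and -0.22 with 16F16 (-0.48 to 0.05, adjusted p = 0.33). Between the compounds ANKRD37 was 1.5-fold higher with securinine, a log2 difference of 0.58 (95% interval 0.31 to 0.85, adjusted p = 0.034, limma). That call was lost when any 1 of the 6 arrays was left out (0.076 to 0.16), with the 4 arrays alone (0.077), with all probe sets (0.11) and with a replicate block (0.055).

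Of 20 further genes of HIF subunits and oxygen sensing 10 were measured. HIF1A, VHL, EGLN2 and HIF1AN were among those without a named probe set, so the list covers the pathway only in part. With securinine EPAS1 fell, CREBBP and EP300 rose, and the median was -0.011. The shares of all genes called were 10.6% lower and 8.40% higher. EPAS1, which encodes HIF-2 alpha, read 7.7 and 7.92 with securinine, 9.25 and 9.12 with 16F16, and 9.33 and 9.2 in mock cells. The securinine arrays lay below all 4 others, and the 16F16 and mock arrays overlapped. The log2 difference was -1.45 ± 0.111 with securinine (SE; adjusted p = 0.0028, limma), -0.08 with 16F16 (adjusted p = 0.73), and -1.37 between the compounds (adjusted p = 0.0088, limma). The coactivator genes CREBBP and EP300 rose with securinine by 0.99 and 0.89 on the log2 scale (adjusted p = 0.0049 and 0.0047, limma), and were 0.58 and 0.44 higher with securinine than with 16F16. With EGLN1 counted, 4 of these genes passed with securinine against mock, and 3 to 4 did when 1 array was left out. With 16F16 none of the 10 passed in limma, and 2 had an unadjusted p under 0.05, against 21.1% of all genes. The median was -0.015. EGLN3, a further HIF hydroxylase, differed by -0.52 with securinine (adjusted p = 0.069) and -0.21 with 16F16, the opposite sign to EGLN1 with securinine.

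Of 42 further HIF target genes 28 were measured. With securinine 6 fell and 2 rose. Of all genes tested 10.6% were called lower and 8.40% higher, and 25.3% of genes brighter than the median of all probe sets passed. The median of the 28 was -0.253, against -0.035 over all genes. The genes that fell were LOX, which cross-links collagen, the lipoprotein receptor VLDLR, the secreted glycoprotein STC2, the MAX-binding repressor MXI1, INSIG2, which retains sterol sensors in the endoplasmic reticulum, and the histone demethylase KDM4C. Their log2 differences were -1.46, -0.88, -0.6, -0.56, -0.49 and -0.4. The genes that rose were WSB1, a ubiquitin ligase subunit, by 0.82 and the LIM protein gene CSRP2 by 0.62. With 16F16 LOX and VLDLR fell, by differences of -0.69 (adjusted p = 0.038) and -0.65 (adjusted p = 0.035, limma), and none rose. Of all genes tested 0.779% were called lower and 0.719% higher with 16F16. Of the 28, 17 had an unadjusted p under 0.05 with 16F16, against 21.1% of all genes (limma). Among the 17 is NAMPT, a gene of chromosome 7 whose probe set identifier lies between those of the chromosome 10 genes CUL2 and MXI1. The NAMPT value is therefore uncertain, and cross-hybridization was not tested. The 16F16 median was -0.217, against -0.012 over all genes. When 1 array at a time was left out, the called HIF targets, counted together with BNIP3, NDRG1, EGLN1 and ANKRD37, numbered 3 to 12 with securinine, against 11 with all arrays.

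LOX read 5.09 and 5.04 with securinine, 5.88 and 5.8 with 16F16, and 6.46 and 6.6 in mock cells. The 3 groups did not overlap, and securinine was lowest. LOX was also lower with securinine than with 16F16, by a log2 difference of -0.77 (adjusted p = 0.014, limma). VLDLR read 7.17 and 7.16 with securinine, 7.45 and 7.34 with 16F16, and 8.05 and 8.04 in mock cells. Its difference between the compounds was -0.23 (adjusted p = 0.13). EPO, the gene of erythropoietin, was lower with securinine than with 16F16 by -0.47 (adjusted p = 0.03, limma), at 0.06 above mock with securinine and 0.53 above mock with 16F16, where neither passed. VEGFA, the angiogenic growth factor, differed from mock by 0.02 with securinine and -0.54 with 16F16 (adjusted p = 0.11).

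Genes with values most like those of HK2 were ranked by root mean square distance over the 6 arrays, with each gene's log2 values centred on its own mock mean, among 12683 genes. The closest 5 were MEIS1, HS6ST2, ARHGAP36, LFNG and TNS3, at distances of 0.0509, 0.09, 0.0925, 0.0974 and 0.103. MEIS1, a homeobox transcription factor gene, read 6.15 and 6.1 with securinine, 6.22 and 6.13 with 16F16, and 7.14 and 7.16 in mock cells. As for HK2, the treated arrays lay about 1 log2 unit below mock and the compounds overlapped. The differences from mock of the 5 genes lay between -1.18 and -1.03 with securinine and between -1.07 and -0.84 with 16F16. They were picked for this likeness, so no test is attached.

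**Figure D4:**
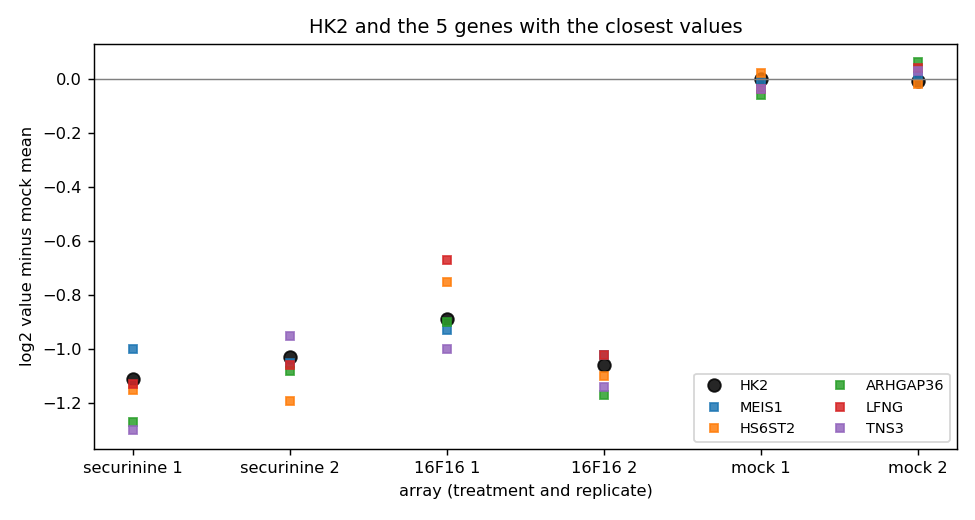
Log2 values minus the mock mean are plotted for HK2 and the 5 genes closest to it on the 2 securinine, 2 16F16 and 2 mock arrays, with 1 marker per gene and array. All 6 genes lie near 0 on the mock arrays and about 1 log2 unit lower on the treated arrays.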

How the data were processed

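RNA of 6 SH-SY5Y samples was hybridised to Affymetrix arrays (Human Gene 2.0 ST). The authors deposited log2 values for 53617 probe sets, with 0 missing. The tools per the submitters' processing notes were RMA and limma, with neither version nor settings. Because RMA scales the arrays to each other, a shift common to most genes is lost. Neither scanner files nor detection calls were used. For the annotation release and any filter before deposit, details were not given in the sources used here. The number of arrays limits the precision.

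The labels name each array's treatment and call the arrays biological replicates, without saying how cultures were separated. Each p-value sets a group difference against the spread between these samples. Whether that is a spread between independent experiments is not known. Probe sets were named through GEO's platform annotation: 16098 (30%) had 1 gene symbol, 0 had several and the rest none. A gene without a named probe set was counted as not measured, although unnamed probe sets on the array may read it. For 779 genes with several probe sets the brightest by mean over the arrays was kept. The 14884 genes were fitted with limma 3.58.1 (R 4.3.3; lmFit and eBayes, group as the only term, 3 residual degrees of freedom), two-sided, with Benjamini-Hochberg adjustment over all genes and a threshold of 0.05. The script was tested on simulated data. The authors' log2 values were otherwise used as deposited.

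The 7 genes and the lists were chosen with earlier results of these data known. Named genes are the 7, their near paralogs, in each list up to 4 genes lowest in adjusted p against mock and every called gene where these were 8 or fewer, and the 5 genes closest to HK2. VEGFA and NAMPT were added after their values were seen. Marker genes were likewise listed with results known. Alternatives were quantile normalization, centring on array medians, an intensity trend in the prior, the 4 compared arrays alone, genes above the median, the mean of a gene's probe sets, all probe sets, a replicate block and leaving out each array.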

Additional observations from a re-analysis of the deposited data

How the results depend on the processing

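Of the 14 alternatives 11 gave a separate fit for the 7 genes: each has 1 probe set, so averaging probe sets changed nothing, and leaving out either array of the group not compared repeated the 4-array fit. None of the 231 values from these 11 (21 differences) changed sign in a called result: 170 kept their side of the threshold, 49 lost the call and 12 gained it. The HK2 call with securinine held in all 11. With 16F16 against mock 223 genes and 2 of the 7 were called. With an intensity trend the counts were 1808 and 5, and among genes above the median 1056 and 5. PGK1, BNIP3 and EGLN1 were the genes gained in both. The counts were 0 and 0 with the 4 arrays alone, with all probe sets and with the replicate block (2904, 7250 and 2856 genes at an unadjusted p under 0.05 in limma). With securinine against 16F16 1416 genes and 3 of the 7 were called, against 3107 and 5 with the trend, 2522 genes among those above the median, 324 and 1 with the 4 arrays alone, 0 and 0 with all probe sets (9565 unadjusted) and 503 and 1 with the replicate block. With securinine against mock 1 of the 7, against 4, was called with all probe sets. Leaving out 1 array at a time gave 629 to 2462 genes and 1 to 4 of the 7 for securinine against mock, 0 to 0 genes and 0 to 0 of the 7 for 16F16 (2099 to 2904 unadjusted), and 0 to 324 genes and 0 to 1 of the 7 between the compounds. Where this left 1 array in a group, that array was assumed to vary like the other groups. The share of calls that were higher was 57.1% with all probe sets, against 44.3%, for securinine against mock, and 28.4% with the 4 arrays alone, against 41.7%, between the compounds. The all-probe-set fit adjusts over more tests and the fits without an array have fewer samples; the cause of the other shifts was not tested. Replicate numbers are shared in the labels, which do not say whether they pair the arrays. Replicate 2 minus replicate 1 correlated across genes at -0.032 for mock and securinine, 0.038 for mock and 16F16 and -0.05 for securinine and 16F16. These values show no strong shared replicate effect, but they cannot tell whether cultures were paired. Quantile normalization and centring moved the median of all genes by less than 0.1. The share of calls that were higher was then 37.7% and 37.8%, against 44.3%, for securinine against mock. Between the compounds it was 32.6% and 34.0%, against 41.7%. With no detection calls, low probe sets such as PGK2 could not be told from background.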

Other observations

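Pyruvate entry into mitochondria was described by 9 measured genes of 15. With securinine 3 fell: MPC1, a subunit of the mitochondrial pyruvate carrier, by a log2 difference of -0.69 ± 0.0933 (SE; adjusted p = 0.0087, limma), pyruvate carboxylase PC by -0.53 (adjusted p = 0.019) and DLAT, a pyruvate dehydrogenase subunit, by -0.42 (adjusted p = 0.031). None rose, and the median was -0.253. The shares of all genes called with securinine were 10.6% lower and 8.40% higher. With 16F16 none of the 9 passed in limma, and 3 had an unadjusted p under 0.05, against 21.1% of all genes. The median was -0.037. MPC1 read 8.29 and 8.24 with securinine, 9 and 9.18 with 16F16, and 8.99 and 8.91 in mock cells. The securinine arrays lay below all others, and MPC1 was lower with securinine than with 16F16 by -0.83 (adjusted p = 0.013, limma). When 1 array was left out, 0 to 2 of the 9 passed with securinine against mock. DLD, another subunit of the complex, differed by -0.29 with securinine (adjusted p = 0.067).

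Of 13 genes of glycogen and hexose phosphate branches 6 were measured, and PGM2 alone passed with securinine, falling by -0.61 (adjusted p = 0.0086, limma). Of all genes tested 10.6% were called lower and 8.40% higher with securinine. The list median was -0.057, against -0.035 over all genes. GFPT1, PGM1 and GYS1 differed by 0.29, -0.27 and -0.1 with securinine and did not pass. When 1 array was left out, 0 to 1 of the 6 passed with securinine. With 16F16 none of the 6 passed and none had an unadjusted p under 0.05 in limma. Of 11 mitophagy receptors and adaptors other than BNIP3 9 were measured and none passed against mock in limma. Of these, 5 with securinine and 2 with 16F16 had an unadjusted p under 0.05, against 33.6% and 21.1% of all genes. The medians were -0.2 and -0.028. TAX1BP1 and PHB2 differed by 0.31 and -0.28 with securinine (adjusted p = 0.051 and 0.057, limma). PINK1, a kinase that marks damaged mitochondria, was lower with securinine than with 16F16 by -0.54 (adjusted p = 0.023, limma). The PINK1 call was lost when any 1 array was left out. A list of 15 genes of the MYC, MAX and MLX network, ESRRA and SP1 also held TXNIP and ARRDC4, which are arrestin-family genes and no transcription regulators. Of the 15, 13 were measured, and 2 rose and 6 fell with securinine while 2 fell with 16F16, TXNIP and ARRDC4 counted. The shares of all genes called were 8.40% higher and 10.6% lower with securinine, and 0.779% lower with 16F16. MYC differed from mock by -2.62 with securinine and -1.65 with 16F16, and TXNIP, an inhibitor of thioredoxin and glucose uptake, by -3.42 and -1.33, all passing in limma. The others that passed with securinine were MXD1 (0.57) and MLX (0.42), both higher, and ARRDC4 (-1.65), MXI1 (-0.56), MLXIPL (-0.45) and ESRRA (-0.35), all lower. When 1 array was left out, 3 to 6 of the 13, against 8, passed with securinine and 0 with 16F16, against 2.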
